A study of Mus musculus with 26 samples.

Results

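The genes described here are 10 genes of the LIF and STAT3 pathway, chosen by name for their place in the pathway: the receptor genes Lifr, Il6st and Osmr, the kinase gene Jak1, the transcription factor gene Stat3, the feedback inhibitor genes Socs2 and Socs3, and the target genes Pim1, Pim3 and Junb. Values are given for 8 of the 10, out of 15646 genes with an expression value and 18797 promoter fragments listed as a bait. Stat3 and Pim1 were not analysed here.

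The study compared 3 mouse pluripotent cell types by promoter-capture Hi-C (PCHi-C), which finds the restriction fragments that lie close to gene promoters in the nucleus, and by RNA-seq. Wild-type embryonic stem cells (WT ESCs) of the line E14Tg2a and Nanog-/- ESCs of the line RCNβH-B(t), which was derived from E14Tg2a and lacks Nanog, were both grown on gelatin with 15% fetal bovine serum and 1000 U/ml LIF. Hygromycin was also in the medium while the knockout cells were expanded. Epiblast stem cells (EpiSCs), from post-implantation embryos of the 129S2 strain, were grown on fibronectin in N2B27 medium with 20 ng/ml Activin A and 12 ng/ml bFGF, and their protocol names no LIF. Cell type, medium, strain background and the presence of LIF therefore change together between EpiSCs and ESCs and cannot be told apart, and the Nanog-/- state is 1 line. The strain tag of the samples reads C57BL/6, which differs from the lines named in the growth protocols. The labels list 5 PCHi-C lanes and 3 RNA samples of WT ESCs, 2 and 4 of EpiSCs, and 5 and 3 of Nanog-/- ESCs. The values used here are 1 combined contact list and 1 median expression value per cell type. Fold changes and p-values that the authors also deposited for RNA-seq were not used. No value below therefore has an error or a test, and every difference is a description of these lists and medians.

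LIF binds the LIF receptor, which pairs with the shared signalling chain gp130, the product of Il6st. JAK kinases attached to both chains then phosphorylate STAT3, which enters the nucleus and activates its target genes. Mouse ESCs in serum need LIF to stay undifferentiated, whereas EpiSCs are kept in Activin and FGF. SOCS proteins are made in response to STAT signalling and switch the receptor complex off again. STAT dimers are known to bind the palindrome TTCNNNGAA, in which N is any base and which reads the same on both strands.

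That motif was searched in the 250 bases before the transcription start of each gene in the RefSeq promoter table for GRCm38.p6. Of the 8 genes, 7 matched the table (Socs2 did not), and only Socs3 held the motif in this window. The same search found the motif in 7.02% of all 32851 promoters of the table. The Socs3 stretch is on the minus strand at chr11:117969367-117969616 and lies within the fragment that was used as the Socs3 bait. The motif, in capitals, begins 154 bases before the start. It is shown as the only match among the 7 genes. Socs3 had the largest fall in expression among the 8 genes in EpiSCs. Lifr and Pim3, which were also lower there, held no motif in this window. Whether the motif has a part in these levels was not tested. The match is a description of the sequence and not a measured binding site.

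Socs3 promoter: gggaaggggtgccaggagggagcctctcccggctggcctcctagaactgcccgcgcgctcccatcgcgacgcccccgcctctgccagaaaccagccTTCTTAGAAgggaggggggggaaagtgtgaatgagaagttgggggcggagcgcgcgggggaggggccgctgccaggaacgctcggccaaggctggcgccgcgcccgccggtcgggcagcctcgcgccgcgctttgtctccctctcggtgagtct

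The cell types were checked against marker genes, with expression in RPKM (reads normalised to gene length and library size). Nanog, the targeted gene, was at 418 RPKM in WT ESCs, 22.3 in Nanog-/- ESCs and, as deposited, 361 in EpiSCs. The EpiSC values were higher than those of WT ESCs for most genes, with a median ratio of 1.885 over 9077 genes, so EpiSC values were divided by this ratio and are given both as deposited and scaled. A gene was counted as past 2-fold when log2((RPKM + 1)/(RPKM in WT ESCs + 1)) reached 1 or -1 and either value was at least 1 RPKM. Nanog was at 191 RPKM in EpiSCs after scaling, which was lower past 2-fold (log2 ratio -1.12, or -0.21 without scaling). Of 6 naive ESC markers, 6 were lower in EpiSCs past 2-fold, and of 6 primed markers, 3 were higher (Fgf5, T and Lefty1), with Otx2, Pou3f1 and Dnmt3b within 2-fold. Of 3 general pluripotency markers, Sox2 (log2 ratio -2.43) and Utf1 (-1.67, or -0.76 without scaling) were lower and Pou5f1 was within 2-fold. In Nanog-/- ESCs the naive marker Dppa3 (-2.37) and the primed markers Fgf5 (-1.44) and T (-1.03) were lower past 2-fold. The others of these lists were within 2-fold there. Markers of other cell types moved with the states as well. Of 6 primitive endoderm markers, 5 were higher in Nanog-/- ESCs, with a summed level of 4.49 RPKM in WT ESCs, 69.4 in Nanog-/- ESCs and 65.9 in EpiSCs after scaling. In EpiSCs after scaling, 4 of the 5 that reached 1 RPKM in WT ESCs or EpiSCs were higher past 2-fold. They were Foxa2 (log2 ratio 4.74), Sox17 (2.63), Gata6 (1.79) and Dab2 (1.53). Foxa2 made up 48.0 RPKM of the EpiSC sum and 2.54 of the Nanog-/- sum. Gata4 and Sox7 were at 0.518 and 0.190 RPKM in EpiSCs after scaling. Of 6 fibroblast markers, 4 were higher past 2-fold in EpiSCs after scaling (6 without it) and 2 in Nanog-/- ESCs (Postn and Twist2). Their sums were 47.5 RPKM in WT ESCs, 65.6 in Nanog-/- ESCs and 216 in EpiSCs after scaling, or 406 as deposited. No marker of these 2 types with a value was at 0 in any state, and their part in the differences below was not tested. In bulk RNA, fewer cells of a type and less RNA per cell cannot be told apart.

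Among the 8 genes, Lifr, Socs3 and Pim3 were lower in EpiSCs past 2-fold and none was higher. Over all 10532 genes compared, 14.4% were lower and 15.5% were higher past 2-fold. The median log2 ratio of the 8 genes was -0.71, against 0.01 over all genes. Without the scaling, Socs3 and Pim3 were again lower, Lifr did not pass, and Osmr, Jak1 and Junb were higher, where 8.27% of all genes were lower and 43.0% were higher. In Nanog-/- ESCs only Osmr passed 2-fold, upwards, and none was lower, against 2.59% higher and 2.08% lower of 10175 genes. The median log2 ratio of the 8 genes there was 0.26, against 0.07 over all genes.

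**Figure D1:**
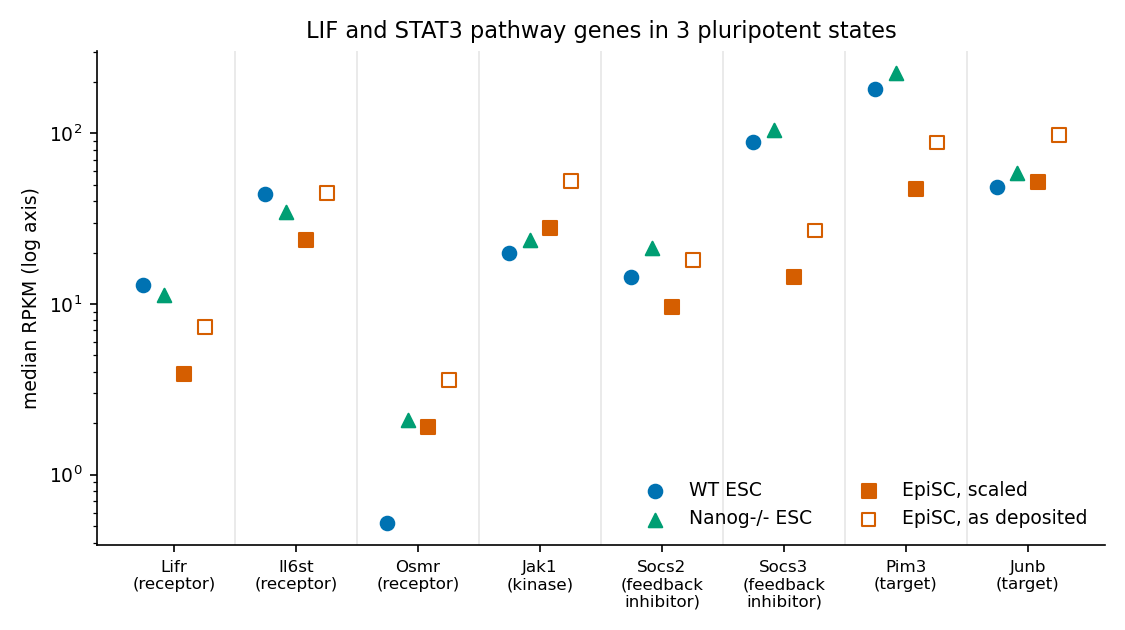
Median RPKM of the 8 genes (log axis) in WT ESCs, Nanog-/- ESCs and EpiSCs, with EpiSC values scaled (filled squares) and as deposited (open squares); each point is 1 authors' median and has no error bar. Socs3 and Pim3 lie lower in EpiSCs than in both ESC types with and without scaling, and Osmr lies lowest in WT ESCs.

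The receptor genes differed from each other in level and in direction. Lifr, the chain that gives the receptor its specificity for LIF, was at 12.9 RPKM in WT ESCs, 11.3 in Nanog-/- ESCs and 7.32 in EpiSCs as deposited, or 3.88 scaled. This was 2.84-fold lower than in WT ESCs after scaling (log2 ratio -1.51) and had a log2 ratio of -0.74 without it. In Nanog-/- ESCs the log2 ratio was -0.18.

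Il6st, which encodes gp130, was higher than Lifr in every state. It was at 44.3 RPKM in WT ESCs, 34.8 in Nanog-/- ESCs and 44.5 in EpiSCs as deposited, or 23.6 scaled. The EpiSC value is therefore level with WT ESCs as deposited (log2 ratio 0.01) and lower by less than 2-fold after scaling (-0.88), so its direction rests on the scaling.

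Osmr encodes the oncostatin M receptor, which pairs with gp130 in place of the LIF receptor. Its level was low throughout, at 0.522 RPKM in WT ESCs, 2.08 in Nanog-/- ESCs and 3.58 in EpiSCs as deposited, or 1.90 scaled. WT ESCs had the lowest level of the 3 states under either scale. The log2 ratio was 1.02 in Nanog-/- ESCs and 0.93 in EpiSCs after scaling, 1 just past the 2-fold limit and the other just short of it. Both depend on the settings: dividing the Nanog-/- values by their own median ratio of 1.049 gave 0.97, and a pseudocount of 0.1 in place of 1 gave 1.81 for Nanog-/- ESCs and 1.69 for EpiSCs.

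Jak1, a kinase bound to gp130, was at 19.8 RPKM in WT ESCs, 23.8 in Nanog-/- ESCs and 52.4 in EpiSCs as deposited, or 27.8 scaled. It was highest in EpiSCs under either scale, by a log2 ratio of 0.47 after scaling and 1.36 without it. Its log2 ratio in Nanog-/- ESCs was 0.25.

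Both feedback inhibitors were lower in EpiSCs after scaling, by very different amounts. Socs3, which binds gp130 and the JAKs and blocks further signalling, was at 88.3 RPKM in WT ESCs, 104 in Nanog-/- ESCs and 26.9 in EpiSCs as deposited, or 14.3 scaled. That is 5.84-fold lower in EpiSCs than in WT ESCs on the scale with a pseudocount of 1 (log2 ratio -2.55, or -1.68 without scaling). Socs2, a related inhibitor best known for limiting growth hormone signalling, was at 14.4, 21.2 and 18.0 RPKM in the same order, or 9.57 in EpiSCs after scaling. Its EpiSC log2 ratio was -0.54 scaled and 0.31 unscaled, so its direction turns with the scaling, and its ratio of 0.53 in Nanog-/- ESCs was the second highest of the 8 genes there.

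In WT ESCs, Pim3 had the highest level of the 8 genes, and Socs3 and Junb came next. Pim3, a serine/threonine kinase gene, was at 181 RPKM in WT ESCs, 225 in Nanog-/- ESCs and 88.4 in EpiSCs as deposited, or 46.9 scaled. It was 3.79-fold lower in EpiSCs after scaling (log2 ratio -1.92) and past 2-fold without scaling as well (-1.02). Junb, a subunit of the AP-1 transcription factor that many other signals also induce, was at 48.2, 58.6 and 97.9 RPKM, or 51.9 in EpiSCs after scaling. Its EpiSC level was within 2-fold of WT ESCs after scaling (log2 ratio 0.11) and just past it without (1.01). The 5 members that are not receptors (Jak1, Socs2, Socs3, Pim3 and Junb) all had Nanog-/- values above those of WT ESCs by less than 2-fold, with log2 ratios between 0.24 and 0.53, or between 0.17 and 0.46 once the Nanog-/- values were divided by their median ratio. Of the receptor genes, Lifr and Il6st lay below WT ESCs there, at -0.18 and -0.34, and Osmr lay above. The median over all genes was 0.07. The share of all genes that rose by as much was not computed.

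Other genes of the pathway were taken from a list of 50 genes, of which 42 had a value and 40 reached 1 RPKM in WT ESCs or EpiSCs. In EpiSCs 5 were higher and 10 were lower past 2-fold after scaling, against 15 higher and 7 lower without it. That is 12.5% higher and 25.0% lower after scaling, beside 15.5% and 14.4% of all genes, and 37.5% and 17.5% without scaling, beside 43.0% and 8.27%. The lower genes lay mainly among those listed as targets, where 8 of 14 were lower and 3 were higher after scaling. Without scaling, 6 of these 14 were lower and 5 were higher, so the size of this skew rests on the scaling. Of 39 genes compared in Nanog-/- ESCs, 2 were higher and 2 were lower, or 5.13% each, beside 2.59% and 2.08% of all genes.

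Genes of transcription factors that maintain naive ESCs were among the lower ones, and Tcfcp2l1 and Klf4 had the lowest log2 ratios of the list. Tcfcp2l1 went from 82.5 RPKM in WT ESCs to 1.39 scaled in EpiSCs (log2 ratio -5.12), and was at 66.3 in Nanog-/- ESCs. Klf4 went from 93.0 to 5.76 (-3.80), and it was also lower in Nanog-/- ESCs, at 31.7 RPKM (-1.52). Klf5 went from 88.7 to 16.9 (-2.32) and was at 118 in Nanog-/- ESCs. Gbx2 went from 10.4 to 2.21 (-1.83), while it was higher in Nanog-/- ESCs, at 37.4 RPKM (1.75). These 4 factors were all lower in EpiSCs with and without scaling, but in Nanog-/- ESCs 1 was lower past 2-fold and 1 was higher.

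Further targets lower in EpiSCs were Bcl3, a nuclear cofactor of NF-κB (log2 ratio -2.47), Gadd45g, a growth arrest gene (-2.05), Fos, the AP-1 partner of the JUN proteins (-1.80), and Mcl1, an inhibitor of apoptosis (-1.52). Fos and Mcl1 did not pass without scaling, at -0.94 and -0.61. Stat4 was also lower, from 10.2 RPKM in WT ESCs to 1.74 in EpiSCs (-2.03).

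Pim2, the close relative of Pim3, moved the other way. It was at 95.3 RPKM in WT ESCs, 38.3 in Nanog-/- ESCs and 470 in EpiSCs after scaling, with log2 ratios of 2.29 in EpiSCs and -1.29 in Nanog-/- ESCs. Pim2 and Pim3 thus had log2 ratios of opposite sign in both comparisons, but that of Pim3 in Nanog-/- ESCs (0.31) was within 2-fold. Socs5 was higher in EpiSCs (1.52), in contrast to Socs3. Myc was at 24.2 RPKM in WT ESCs and 72.2 in Nanog-/- ESCs (1.54), and within 2-fold in EpiSCs after scaling (0.26). The other 3 genes higher in EpiSCs, named after their values were seen, were Cebpb (1.21), Jak2 (1.20) and Jund (1.09).

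The ligand genes with a value were low, at up to 14.6 RPKM in any state (Ctf1 in EpiSCs as deposited). In WT ESCs they ran from 0.329 RPKM for Il6 to 4.75 for Ctf1, which encodes cardiotrophin. Cntf was at 2.58 RPKM there, Il11 at 0.788, Osm at 0.754 and Clcf1 at 0.401. None of these ligands passed 2-fold in EpiSCs after scaling or in Nanog-/- ESCs. Without scaling, Il11, Clcf1 and Ctf1 were higher in EpiSCs past 2-fold, with log2 ratios of up to 1.59 (Il11). The LIF of the ESC cultures was supplied in the medium, and the Lif gene itself was not analysed here.

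**Figure D2:**
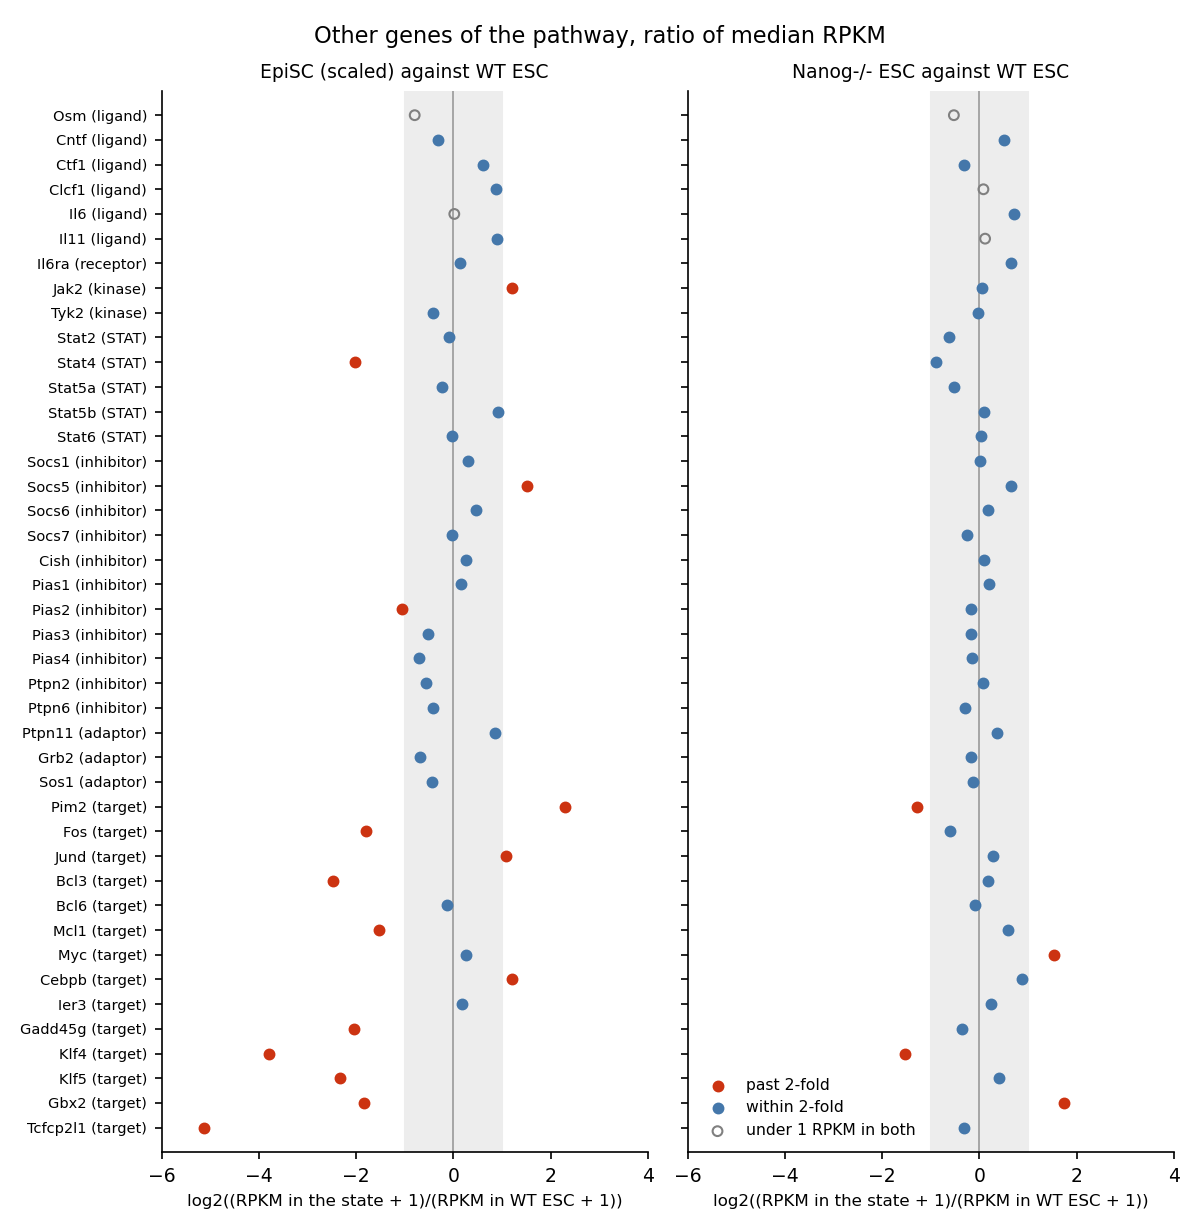
Log2 ratio of median RPKM (pseudocount 1) for 42 other pathway genes, EpiSCs after scaling on the left and Nanog-/- ESCs on the right, each against WT ESCs; red points are past 2-fold (outside the grey band) and open points are under 1 RPKM in both states. In EpiSCs 10 of 40 genes lie below the band and 5 above it, with most of the low ones among the targets at the bottom, and in Nanog-/- ESCs 4 of 39 lie outside it.

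The promoter contacts are pairs of HindIII fragments. HindIII cuts at AAGCTT, and this site spanned both ends of all 117 fragments used here (109 partners and 8 baits) in the GRCm38 sequence. Each pair has the number of reads that join it, after the replicates were combined, and a CHiCAGO score, which weighs how far the reads exceed what is usual at that distance. The lists hold scores of at least 5. A pair absent from a list was not listed with such a score in that state, which is not the same as no contact. Its score, if it had one, is not given. The lists hold 100492 pairs for WT ESCs, 87369 for EpiSCs and 74931 for Nanog-/- ESCs.

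The WT ESC list held 60 contacts of the 8 genes, the EpiSC list 54 and the Nanog-/- list 51, with 109 different pairs in all. Of the 60 WT ESC contacts, 23 were also listed in EpiSCs (38.3%) and 29 in Nanog-/- ESCs (48.3%), while 39.6% and 41.8% of all WT ESC pairs were. In both other lists were 18 of the 60, or 30.0%, against 24.9% of all pairs. In the other direction, 23 of the 54 EpiSC contacts were listed in WT ESCs (42.6%), against 45.5% of all EpiSC pairs, and 29 of the 51 Nanog-/- contacts were (56.9%), against 56.0%. The pooled shares of the members lie near those of all pairs, but single genes differed. In EpiSCs 5 of the 26 WT ESC contacts of Osmr were listed, against 8 of 16 for Pim3. When a partner fragment that starts within 10 kb was also taken as a match, 42 of the 60 WT ESC contacts had one in EpiSCs and 45 in Nanog-/- ESCs, or 70.0% and 75.0%, against 61.8% and 62.7% over all baits. No contact joined a member to another member or to a gene of the pathway list.

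**Figure D3:**
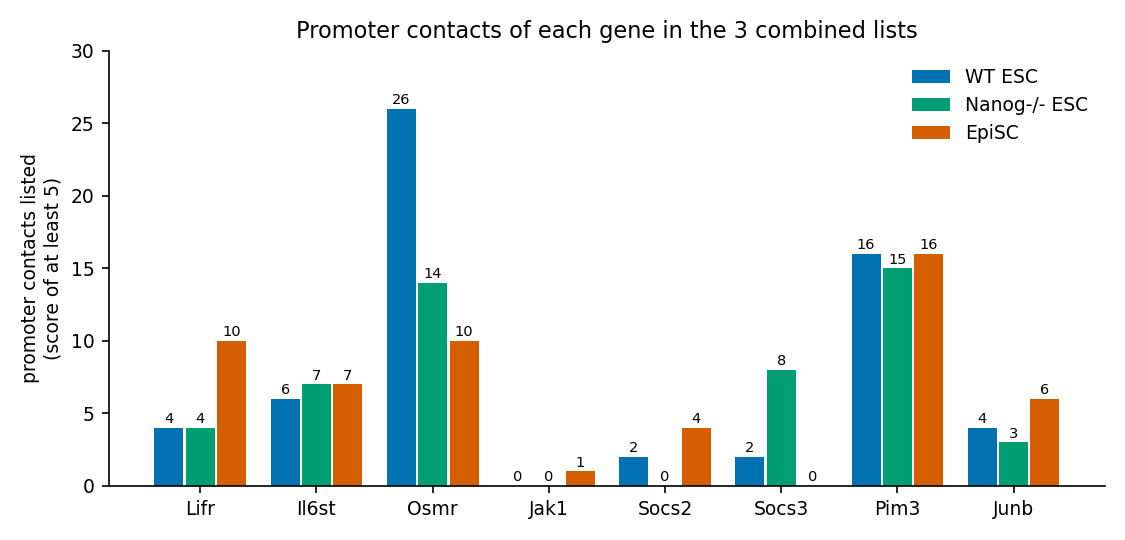
Number of contacts (score of at least 5) of each gene in WT ESCs, Nanog-/- ESCs and EpiSCs. Osmr stands highest with 26 contacts in WT ESCs, Pim3 is level at 15 to 16, and Socs3 has 2, 8 and 0.

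Osmr and Lifr are neighbours on chromosome 15, with 258.7 kb between the middles of their baits. The Osmr contacts reached past Lifr, while those of Lifr ended short of the Osmr bait. Osmr had 26 contacts in WT ESCs, 14 in Nanog-/- ESCs and 10 in EpiSCs, more than 96.0%, 90.5% and 82.6% of all baited fragments had in the same lists. Of its 34 different partners, 32 were over 100 kb away. Its median distance was 371 kb in WT ESCs, 350 in Nanog-/- ESCs and 377 in EpiSCs. Over all pairs of the same lists it was 139, 74.1 and 141 kb, and their share over 100 kb was not computed. Most of the Osmr partners fell in 1 region of 57.5 kb at chr15:7204286-7261777, beyond Lifr and at 329 to 385 kb from the Osmr bait. This region covers the 3′ part of Egflam, the gene of an extracellular matrix protein, on the minus strand at chr15:7206120-7398395, and the stretch just past it. It held 20 Osmr partner fragments: 18 were listed in WT ESCs, 11 in Nanog-/- ESCs and 6 in EpiSCs.

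In that region 5 fragments were listed in all 3 states, and 8 were listed in WT ESCs alone. The highest score in WT ESCs was 16.18, with 21 reads, at chr15:7229591-7230669, an intronic fragment of Egflam. The same fragment had a score of 8.40 with 10 reads in EpiSCs and 8.28 with 9 reads in Nanog-/- ESCs. The highest score in EpiSCs was 14.20, with 15 reads, at the exonic fragment chr15:7223302-7225057, where WT ESCs had 11.10 with 16 reads and Nanog-/- ESCs 6.91 with 8 reads. In Nanog-/- ESCs the highest was 11.04, with 11 reads, at the intronic fragment chr15:7254844-7255001, which WT ESCs also listed, at 10.25 with 14 reads. The highest-scoring Osmr fragment was thus another one of the same region in each state. In Nanog-/- ESCs the next fragment, chr15:7255002-7256474, had 10.12 with 10 reads. As the reads are few and have no error, no shift between states can be read from this.

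The other 3 fragments listed in all 3 states were chr15:7220814-7221039, chr15:7225058-7229590 and chr15:7245550-7246068. Their scores ran from 6.00 to 9.29 in WT ESCs, 6.98 to 8.15 in Nanog-/- ESCs and 5.25 to 8.28 in EpiSCs. The short ones among these partner fragments are shown to make the resolution of the contacts visible, as the plus strand of GRCm38, with the bases left by the HindIII cut at each end in capitals. The first was listed in all 3 states and the second in both ESC types. Both are within introns of Egflam, and neither holds TTCNNNGAA.

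Osmr partner chr15:7220814-7221039: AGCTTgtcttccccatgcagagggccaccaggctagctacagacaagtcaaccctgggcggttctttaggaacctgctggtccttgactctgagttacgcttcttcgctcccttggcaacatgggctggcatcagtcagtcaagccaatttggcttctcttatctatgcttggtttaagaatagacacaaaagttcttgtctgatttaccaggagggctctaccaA

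Osmr partner chr15:7254844-7255001: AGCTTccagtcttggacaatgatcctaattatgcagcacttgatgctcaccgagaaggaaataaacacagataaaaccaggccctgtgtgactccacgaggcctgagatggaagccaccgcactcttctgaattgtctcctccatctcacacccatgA

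The read numbers of the shared Osmr pairs were lower than in WT ESCs throughout. All 5 pairs shared with EpiSCs had fewer reads there, with a median ratio of 0.70 against 0.83 over all shared pairs. All 11 shared with Nanog-/- ESCs did too, with a median ratio of 0.69 against 0.62. With a score limit of 7, Osmr had 12 contacts in WT ESCs, 9 in Nanog-/- ESCs and 4 in EpiSCs, so the order of the states was the same. WT ESCs, with the most Osmr contacts, had the lowest Osmr expression, at 0.522 RPKM.

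Beyond the main region, Osmr had contacts near its own start and farther away. The nearest, within its own introns at 9.36 kb, had 136 reads in WT ESCs (score 6.04) and 78 in Nanog-/- ESCs (7.48), and was not listed in EpiSCs. A group at 564 to 578 kb held 3 fragments in WT ESCs and 3 others in EpiSCs, with scores of 5.48 to 6.94. The farthest contact, in EpiSCs, was at 932 kb beside Gdnf, with 5 reads and a score of 5.28. Egflam itself was at 0.0944 RPKM in WT ESCs, 0.279 in Nanog-/- ESCs and 11.9 in EpiSCs after scaling.

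Lifr had 4 contacts in WT ESCs, 4 in Nanog-/- ESCs and 10 in EpiSCs. Its bait, at chr15:7128535-7140209, holds 3 of 8 annotated transcript starts of the gene. The main partner region, chr15:6905052-6929932, lies between the genes, 206 to 229 kb away and on the upstream side of Osmr. It held 3 fragments in WT ESCs, 3 in Nanog-/- ESCs and 6 in EpiSCs. The fragments chr15:6905906-6910079 and chr15:6910080-6913723 were listed in all 3 states. The first had 12 reads and the highest WT ESC score of 9.25, with 7 reads in each other state (7.25 in Nanog-/- ESCs and 6.03 in EpiSCs). The second had the highest score in Nanog-/- ESCs, 8.85 with 8 reads, and 7.90 with 11 reads in WT ESCs and 5.81 with 7 reads in EpiSCs. The region is thus common to the 3 states.

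The highest EpiSC score, 9.71 with 10 reads, was next to these at chr15:6905052-6905905, a fragment listed in EpiSCs alone. EpiSCs also listed Lifr contacts at 111, 137 and 174 kb and 1 at 681 kb in an exon of Gdnf, the last with 4 reads. Both ESC types listed an intronic fragment at 12.7 kb, with 73 reads in WT ESCs and 29 in Nanog-/- ESCs, that EpiSCs did not. The larger number in EpiSCs rests on weak contacts: at a score of at least 7 the numbers were 3 in WT ESCs, 2 in Nanog-/- ESCs and 4 in EpiSCs, and with at least 10 reads they were 3, 1 and 3.

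**Figure D4:**
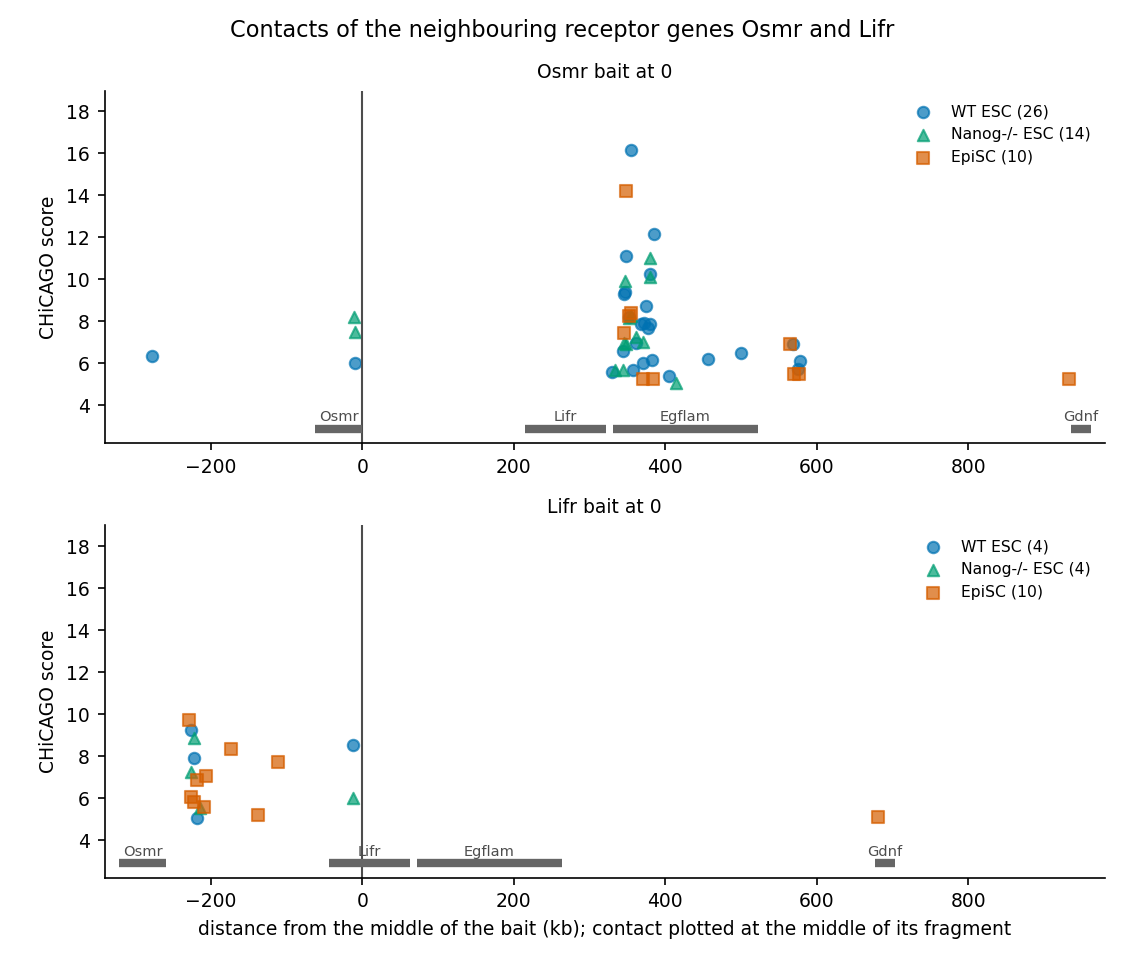
CHiCAGO score of each contact against its distance from the middle of the bait (kb), for Osmr (top) and Lifr (bottom), in WT ESCs (circles), Nanog-/- ESCs (triangles) and EpiSCs (squares); grey bars mark genes. Osmr contacts crowd over the near end of Egflam at 329 to 385 kb, beyond Lifr, and Lifr contacts crowd 206 to 229 kb away, beside Osmr.

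Il6st had 6 contacts in WT ESCs, 7 in Nanog-/- ESCs and 7 in EpiSCs. Its bait, chr13:112473645-112475074, holds 4 of 10 annotated transcript starts but lies 9.58 kb past the RefSeq start, so these contacts are those of the later starts. The main region was chr13:112279431-112335607, 142 to 195 kb away, which runs from just before Ankrd55, an ankyrin repeat gene, into that gene. It held 5 fragments in WT ESCs, 6 in Nanog-/- ESCs and 5 in EpiSCs, 3 of them in all 3 lists. The fragment chr13:112279431-112280250 had the highest score in WT ESCs (9.44 with 16 reads), and chr13:112289170-112292311 had the highest in EpiSCs (10.67 with 23 reads, against 7.79 with 17 in WT ESCs). The third shared fragment, chr13:112315594-112319556, stayed between scores of 5.39 and 5.89.

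The highest Il6st score in Nanog-/- ESCs was 10.13, with 11 reads, at chr13:112300076-112305917, a fragment listed there alone. EpiSCs added 2 contacts in exons of Map3k1 at 698 and 714 kb, with 7 and 6 reads. The nearest contacts, within Il6st, were at 14.7 kb in WT ESCs and 6.84 kb in Nanog-/- ESCs. Ankrd55 itself was near 0 in all 3 states, at 0.0169 RPKM in WT ESCs.

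Jak1 had 1 contact, in EpiSCs alone. It joined the bait at chr4:101261023-101267277 to an exonic fragment of Jak1 at 6.16 kb, with 70 reads and a score of 5.12, just above the limit. In WT ESCs 10.0% of all baited fragments had no contact, in Nanog-/- ESCs 24.7%.

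Socs3 had 2 contacts in WT ESCs, 8 in Nanog-/- ESCs and 0 in EpiSCs. Its bait, chr11:117958092-117972758, is the longest of the 8, at 14667 bases, and holds the whole gene with the promoter shown above. The contact common to both ESC types was at chr11:117944984-117947077, between genes and 19.4 kb away, and it had the highest score in both: 6.36 with 36 reads in WT ESCs and 8.77 with 27 reads in Nanog-/- ESCs.

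The other WT ESC contact of Socs3 was its farthest, at 134 kb in an exon of Dnah17, with 10 reads and a score of 6.12. Nanog-/- ESCs added 3 intergenic fragments on the near side of the shared one and beyond it, at 13.7, 21.6 and 34.1 kb, with 14 to 31 reads. They also listed fragments at Tmem235 (103 kb, score 8.37), at Pgs1 (40.9 kb, 8.13) and at Dnah17 (66.4 and 68.7 kb). At a score of at least 7, WT ESCs had 0 and Nanog-/- ESCs 3. The states with and without listed Socs3 contacts were also those with high and low Socs3 expression (88.3 and 104 RPKM in ESCs against 14.3 scaled in EpiSCs), which is a description over 3 states. In EpiSCs 14.5% of all baited fragments had no contact.

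Socs2 had 2 contacts in the WT ESC list, 4 in the EpiSC list and 0 in the Nanog-/- list, all with scores under 6 and with 3 to 8 reads. The contact with the Cradd promoter fragment, 93.4 kb away, was listed in WT ESCs (8 reads, score 5.19) and EpiSCs (6 reads, 5.40). The fragment chr10:94991066-94992605, between genes near Plxnc1 and 425 kb away, had the highest score in both, 5.83 with 4 reads and 5.43 with 3 reads. EpiSCs listed 1 further fragment on either side of it, of which the farther was at 429 kb. At a score of at least 7 no Socs2 contact was left in any state.

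Pim3 had 16 contacts in WT ESCs, 15 in Nanog-/- ESCs and 16 in EpiSCs, and 6 were in all 3 lists, the most of the 8 genes. A group of 8 fragments lay at 8.27 to 47.6 kb before the gene, at chr15:88815080-88855652, and held 5 contacts in WT ESCs, 7 in Nanog-/- ESCs and 7 in EpiSCs. The fragment chr15:88847882-88849138, between genes and 14.9 kb away, had the highest score in EpiSCs (17.70 with 77 reads) and Nanog-/- ESCs (17.49 with 46 reads), and had 13.77 with 59 reads in WT ESCs. The other 4 of this group in all 3 lists were the promoter fragment of Alg12, a neighbouring fragment in Creld2, and intergenic fragments at 16.8 and 8.27 kb. This near group was thus listed in every state.

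On the other side of Pim3, the fragment with the promoter of Plxnb2, a semaphorin receptor gene, at chr15:89180265-89184067 and 319 kb away, was listed in all 3 states. It had the highest score of Pim3 in WT ESCs, 14.29 with 13 reads, against 10.53 with 8 reads in Nanog-/- ESCs and 8.43 with 8 reads in EpiSCs. The nearest Pim3 contact, at 8.07 kb on this side, was listed in EpiSCs alone, with 55 reads, and EpiSCs also reached farthest, to 610 kb at Arsa, with 4 reads. Of 8 Pim3 pairs shared between WT ESCs and EpiSCs, 6 had more reads in EpiSCs, 1 had fewer and 1 had the same number, with a median ratio of 1.23 against 0.83 over all shared pairs. The 5 near pairs ran from 54 to 88 reads at the largest change and from 36 to 42 at the smallest. In the same comparison Pim3 expression was 3.79-fold lower in EpiSCs after scaling.

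**Figure D5:**
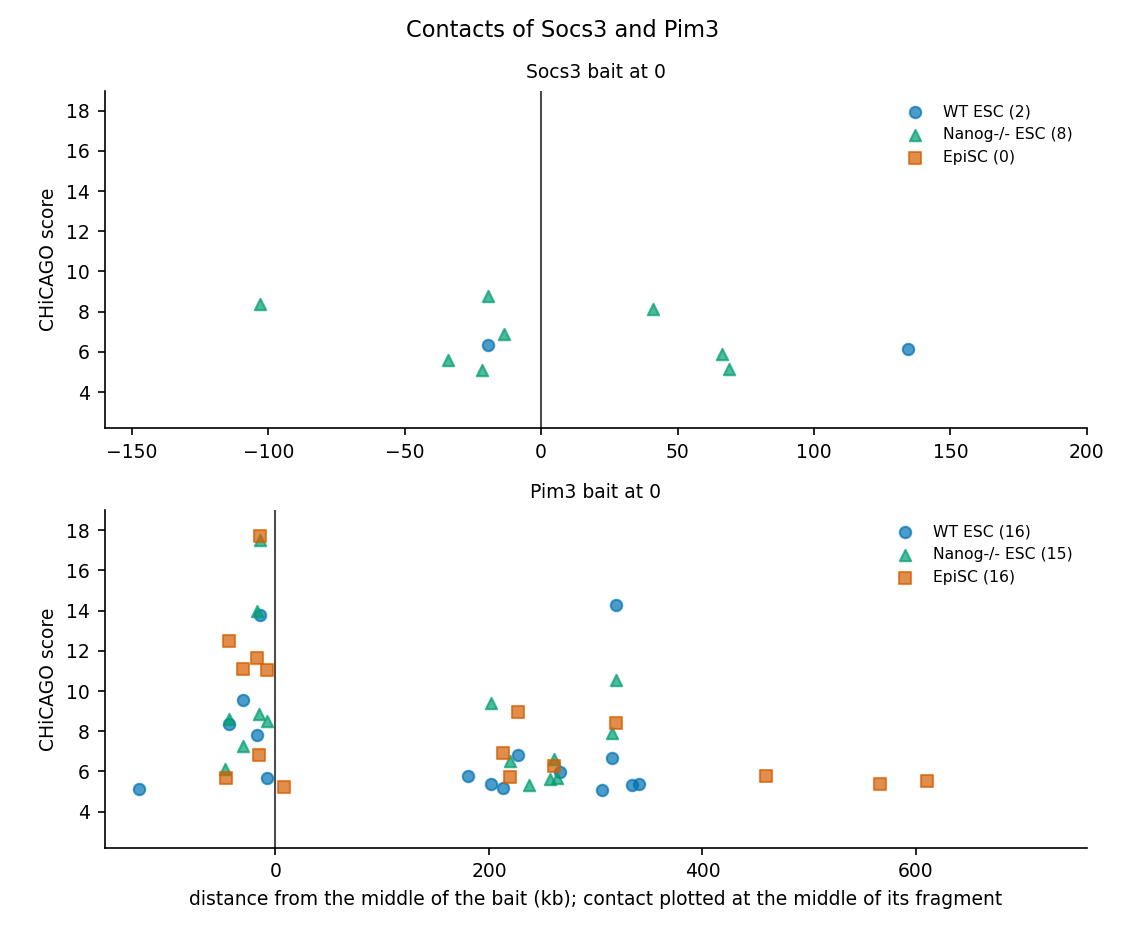
CHiCAGO score of each contact against its distance from the middle of the bait (kb) for Socs3 (top) and Pim3 (bottom), in WT ESCs (circles), Nanog-/- ESCs (triangles) and EpiSCs (squares). Socs3 has no EpiSC contact and 8 in Nanog-/- ESCs, while the Pim3 group at 8.27 to 47.6 kb before the gene holds contacts of all 3 states.

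Junb had 4 contacts in WT ESCs, 3 in Nanog-/- ESCs and 6 in EpiSCs, and all 7 on its own chromosome lay within 72.5 kb, in a gene-dense stretch. Its bait, chr8:84974111-84978738, begins 10 bases past the RefSeq start of this minus-strand gene, so the sequence just before that start is in the neighbouring fragment, although both annotated GENCODE starts lie in the bait. The promoter fragment of Asna1, 45.0 kb away, was listed in all 3 states and had the highest score in EpiSCs (16.01 with 22 reads) and Nanog-/- ESCs (12.74 with 14 reads), against 7.72 with 17 reads in WT ESCs. That of Hook2, 18.8 kb away, was also in all 3, with scores of 5.34, 8.86 and 6.65 in WT ESCs, Nanog-/- ESCs and EpiSCs.

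In WT ESCs the highest Junb score was 10.47, with 23 reads, at the promoter fragment of Best2, which was listed there alone. EpiSCs added the promoter fragment of Prdx2, the nearest at 7.63 kb, and the one farthest at 72.5 kb in Tnpo2, with 9 reads. WT ESCs also listed 1 contact with another chromosome, an intronic fragment of Cntnap5b at chr1:99790400-99790694, which rests on 2 reads.

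Of the pathway list, 42 genes had contacts: 39 in the WT ESC list, 41 in the EpiSC list and 36 in the Nanog-/- list. Their median was 3.5, 3 and 2 contacts in this order, against 4, 3 and 2 over all baited fragments. Of the named targets, Gadd45g had 59, 46 and 36 contacts. Klf4 had 1, 4 and 2, and Tcfcp2l1 had 3, 3 and 4. Myc had 8 contacts in EpiSCs and 0 in both ESC types.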

How the data were processed

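RNA-seq: the deposited table holds RPKM (scaled for gene length and sequencing depth), of which the authors give the median per state (3 WT ESC, 4 EpiSC and 3 Nanog-/- ESC samples labelled). Per the labels, reads were processed with Trim Galore, TopHat and DESeq2 on GRCm38, with no versions. Fold changes and p-values that the authors also deposited were not used. No depth is given, so no interval could be had.

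PCHi-C: per the study's methods, the authors filtered HindIII read pairs with HiCUP, scored them with CHiCAGO, and combined normalized replicates. The deposited lists give read numbers and a CHiCAGO score per pair. The processing notes name Bowtie 1.1.0. ChIP-seq samples were not used.

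Here, pairs listed from both ends were counted once, with the higher score. Baits were matched by the deposited gene name, and distance was taken between fragment middles. Partners were annotated with GENCODE M21, protein-coding genes. Only log2 ratios and counts were computed (Python 3.11.15, pandas 2.3.3), tested on simulated data. The 12 other pathway genes with the largest log2 ratios past 2-fold, and all ligands, were named. For each gene, the contacts named were the highest-scoring, nearest, farthest and those in all lists. The genes, lists and limits were chosen with earlier results of these data known. Alternatives are in the closing section. A few genes of the pathway list are not reported here and are in none of its counts.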

Additional observations from a re-analysis of the deposited data

How the results depend on the processing

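No paired analysis was possible because each state has 1 median and 1 combined list, and leaving out a replicate could not be run for the same reason. The count of members higher in EpiSCs was 0 as reported. It was 1 with a pseudocount of 0.1, with a fold of 1.5 and with the scaling taken over genes of at least 10 RPKM, and 3 without scaling. Dividing Nanog-/- values by their median ratio took its count of members from 1 to 0. For the pathway genes, those higher in EpiSCs went from 5 to 8 with a pseudocount of 0.1, to 10 at a fold of 1.5 and to 15 without scaling. In Nanog-/- ESCs those higher went from 2 to 4 with a pseudocount of 0.1, and at a fold of 1.5 to 7, with 5 lower in place of 2. Contacts fell with the limits: at a score of 7 the WT ESC list held 26, the EpiSC list 20 and the Nanog-/- list 28, at a score of 10 they held 7, 8 and 7, and with at least 10 reads 25 in EpiSCs and 26 in Nanog-/- ESCs, against 41 in WT ESCs. The share of WT ESC contacts listed elsewhere rose to 70.0% in EpiSCs and 75.0% in Nanog-/- ESCs when a partner within 10 kb counted, and to 73.1% in Nanog-/- ESCs at a WT ESC score of 7, where all pairs had 60.4% (in EpiSCs 53.8%, against 57.8%). No other alternative moved a count by more than 1.5 times. The order of the states in total contacts was not kept at a score of 7 or 10 or with at least 10 reads.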

Other observations

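Of 109 different partner fragments of the members, 48 were also contacted by another bait in a state that listed them. Of these, 27 were among the 28 partners of Pim3, against 3 of 34 for Osmr and 1 of 12 for Lifr. The same share over all partner fragments of the lists was not computed. These counts are therefore not read as a trait of the members. The Osmr fragment with the highest EpiSC score, chr15:7223302-7225057, was also a partner of the Rictor bait in WT ESCs. Rictor, a subunit of the mTORC2 kinase complex, lies on the other side of Osmr. Of the Lifr partners, chr15:6905052-6905905 was also a partner of the Egflam bait in EpiSCs, the state in which Egflam was expressed at 22.5 RPKM as deposited. Ddx4, a germ cell gene whose bait shares the Il6st partner chr13:112289170-112292311 in WT ESCs and EpiSCs, was at 15.0 RPKM in WT ESCs, 22.8 in Nanog-/- ESCs and 0.163 in EpiSCs as deposited. Fyb, an adaptor gene of blood cells that holds the WT ESC contact of Osmr at 278 kb, was at 12.9, 16.3 and 0.725 RPKM in the same order. These are values of single medians and have no error.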
